A study of Mus musculus with 6 samples.

Results

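Messenger RNA 3′ ends are made by cleavage and polyadenylation at a position downstream of a six-letter poly(A) signal, and AATAAA is the common form of that signal. The positions described here carried a signal that differed from AATAAA by a single base at its first or second letter. They were found by pooling the cleavage positions of 6 libraries, leaving out chromosome M, taking the deposited hexamer with the most reads as the canonical one, setting aside the second in rank, and keeping every position whose hexamer differed from the canonical one only at base 1 or 2. The rule kept 333451 of the 2333467 distinct positions outside chromosome M, or of 2341170 with chromosome M. Within that rule, summed reads set which hexamer was canonical and which came second, so the higher read level of AATAAA is a description and was not tested. The variants themselves were picked by their letters.

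All libraries came from V6.5, an embryonic stem cell line of mouse with a C57BL/6-129 background, grown under standard conditions. The 3 groups were cells given an antisense morpholino oligonucleotide (AMO) against U1, cells given a scrambled AMO, and untreated cells, with 2 libraries each that the design text calls biological replicates. The design text compares cells with and without inhibition of the U1 snRNP, and the labels give neither the dose nor the duration of the AMOs. A single cell line was used, and the U1 level was not measured in these files.

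The hexamer is bound by CPSF, the cleavage and polyadenylation specificity factor, through its WDR33 and CPSF30 subunits, and a downstream U- or GU-rich element bound by CstF contributes to site choice. Single-base variants of the hexamer are known to work less efficiently than AATAAA in cleavage assays, with ATTAAA the most active of them. U1 snRNP, which pairs with 5′ splice sites, is also known to hold back cleavage at signals inside transcribed regions, so that sites within introns and near promoters can be used when it is blocked.

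The hexamers that carry the results are printed as deposited, in DNA letters from 5′ to 3′, with the base that departs from the canonical signal in capitals. Each is named by its substitution, with the canonical base first and positions counted from 1 at the 5′ end.
A2G: aGtaaa
A1T: Tataaa
A1C: Cataaa
A1G: Gataaa
A2C: aCtaaa
A2T, second in rank and left out: aTtaaa
canonical: aataaa
These 5 variants are every single-base change at bases 1 and 2 other than ATTAAA. The most positions, 107881, carried TATAAA, and AGTAAA had 88640, CATAAA 59988, GATAAA 44579 and ACTAAA 32363. The order by reads was different: over the 6 libraries AGTAAA held 3.11% of reads outside chromosome M, TATAAA 2.01%, CATAAA 0.746%, GATAAA 0.744% and ACTAAA 0.400%. AATAAA held 70.4% and ATTAAA 17.2%. Among the 36 kinds of hexamer listed, the variants ranked 3, 4, 7, 8 and 11 by reads.

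The libraries held 15752080 and 57925358 reads in U1 AMO cells (replicates 1 and 2), 26846406 and 62257923 in scrambled AMO cells, and 38569397 and 60473882 from untreated cells. Read names showed that replicate 1 of both AMOs came from a single run and lane and replicate 2 of both from another run, while each untreated library had a run of its own, so an untreated library and its run cannot be told apart. PCR reads without molecular identifiers were counted, so intervals and floors below cover counting error only.

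A position was credited to a variant only when no known copy of a hexamer higher in a fixed order lay in the same window. The deposited distance from hexamer to position ran from 6 to 40 nt, and 231379 positions had copies of at least 2 kinds of hexamer within that window, as known from neighbouring positions. At these positions the choice followed a strict order, with 0 pairs of hexamers going both ways and 20 pairs never sharing a window. AATAAA and ATTAAA had places 1 and 2, TATAAA 3, AGTAAA 4, CATAAA 8 and GATAAA 9, and ACTAAA came after these. So 0 of the 333451 positions had a known copy of AATAAA or ATTAAA in the window, whereas 5.44% of them, with 3.22% of their reads, had one within 24 nt outside it. The share of a variant is therefore the share left after the hexamers above it in that order, and ACTAAA stood lowest. That order was not the order by reads, since TATAAA stood above AGTAAA. Places 5 to 7 went to hexamers outside the variants.

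Positions with a variant signal were weak and recurred less often than canonical ones. In the 6 libraries a variant position held between 11.5 and 71.4 reads on average and a canonical one between 32.1 and 177, and the variants were lower in every library. Over the pooled positions, 61.3% of variant positions were seen in a single library and 6.61% in all 6. The shares were 51.0% and 13.3% for AATAAA, 54.1% and 10.6% for ATTAAA, and 58.2% and 8.98% over all positions. ACTAAA was at the low end, with 66.4% in a single library and 4.38% in all 6, and AGTAAA was closest to AATAAA, with 58.3% and 7.79%. Libraries differed in depth, so these shares describe the present sequencing and not the number of sites in the cell.

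Neighbouring positions on the same strand were merged into clusters where the gap was no more than 24 nt, and each cluster was named by the hexamer of its strongest position. Positions that lay alone made up 28.6% of the variant positions but held 1.16% of their reads. In contrast, 62.8% of the positions lay in clusters of several positions led by their own hexamer and held 94.4% of the reads. The rest lay in clusters led by AATAAA (3.15% of positions, 2.14% of reads), by ATTAAA (1.33% and 0.543%), by another of the 5 variants (1.36% and 0.951%) or by other hexamers (2.78% and 0.765%). Variant reads thus lay mostly in clusters of their own. Positions with a known AATAAA or ATTAAA copy in the window were credited to that copy. Fewer positions on the flanks of canonical clusters could therefore count as variant, which bears on the shares above and on those that follow. Among clusters averaging 1 CPM or more (read counts scaled to a common library total), 4.60% of the 1044 led by AGTAAA and 4.83% of the 1076 led by TATAAA held any AATAAA or ATTAAA position. The corresponding shares were 3.29% of 517 for CATAAA, 5.45% of 404 for GATAAA and 2.73% of 220 for ACTAAA.

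The share of clusters led by a variant was smaller at higher levels. The 5 variants together led 15.2% of the 835861 clusters under 0.1 CPM, 13.7% of those from 0.1 to 1 CPM, 12.7% from 1 to 10 CPM, 8.53% from 10 to 100 CPM and 6.72% of the 1815 clusters from 100 to 1000 CPM. AATAAA led 30.2% of clusters in the lowest band and 72.6% from 100 to 1000 CPM, and ATTAAA led 12.3% and 16.9%. The variants did not decline alike: AGTAAA led 3.62% of the lowest band and 2.64% of the band from 100 to 1000 CPM, while ACTAAA led 1.76% and 0.441%. TATAAA led more clusters than AGTAAA below 10 CPM and fewer above it. The band of 1000 CPM and more held 77 clusters, too few member clusters to follow the trend. These shares are over clusters of the same 6 libraries, which are not replicates, and were not tested.

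**Figure D1:**
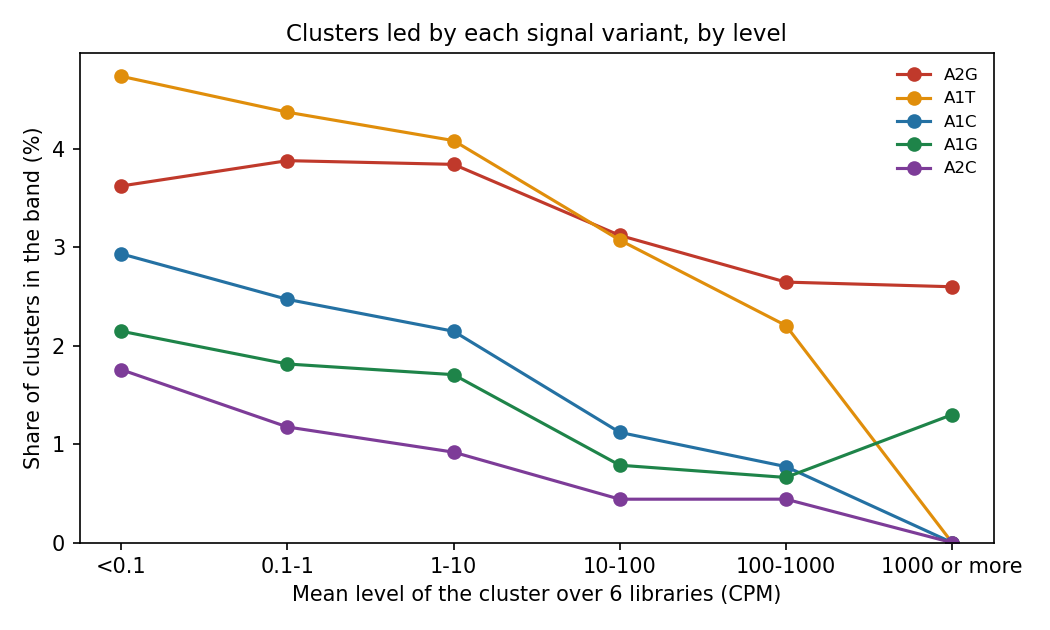
Share of clusters whose strongest position carries each of the 5 signal variants (y axis, percent of all clusters in the band) by the mean level of the cluster over the 6 libraries (x axis, CPM bands). From 100 to 1000 CPM the shares are 2.64% for A2G, 2.20% for A1T, 0.771% for A1C, 0.661% for A1G and 0.441% for A2C, and the last band holds 77 clusters in all.

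A few strong sites supplied much of the reads of some variants. The 10 strongest copies of the hexamer held 51.0% of ACTAAA reads, 42.0% of GATAAA reads and 37.5% of AGTAAA reads, against 22.9% for CATAAA and 17.3% for TATAAA. For AATAAA that share was 8.80%, over 308468 copies. TATAAA had the lowest such share among the variants. The variants had fewer copies than AATAAA, from 17047 for ACTAAA to 46513 for TATAAA, so 10 copies were a larger part of them. The strongest 1% of copies held 89.3% of AGTAAA reads, 86.7% of ACTAAA, 85.8% of GATAAA, 84.1% of TATAAA and 81.9% of CATAAA reads. By that measure AATAAA stood close to them at 81.2%, and ATTAAA at 85.0%. Each copy was served by several cleavage positions: copies with at least 100 reads had a median of 12 or 13 positions for the variants and 14 for AATAAA. A median of 47.6% to 49.5% of a variant copy's reads fell on its strongest position, against 48.0% for AATAAA.

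The strongest site of the 5 variants was an AGTAAA cluster at chr1:88247051-88247084 on the minus strand (mm9, as all coordinates here). It held 2863 and 7038 CPM in U1 AMO cells, 3081 and 7453 CPM in scrambled AMO cells, and 4644 and 4174 CPM in untreated cells. Replicates of both AMOs differed from each other by more than the groups did, and this cluster alone held 17.7% of all AGTAAA reads. The strongest GATAAA cluster, chr11:97022834-97022862 on the minus strand, held 725 and 1326 CPM in U1 AMO cells, 1005 and 1561 CPM in scrambled AMO cells, and 1321 and 1738 CPM in untreated cells. The strongest ACTAAA cluster, chr5:31505025-31505058 on the minus strand, held 868 and 1073 CPM in U1 AMO cells, 721 and 1129 CPM in scrambled AMO cells, and 921 and 475 CPM in untreated cells. These clusters held 19.1% of GATAAA and 22.1% of ACTAAA reads, and the groups overlapped at both. TATAAA had no site of that rank. Its strongest, chr4:118809840-118809948 on the plus strand, held 517 and 459 CPM in U1 AMO cells, 473 and 509 CPM in scrambled AMO cells, and 685 and 519 CPM in untreated cells. That cluster was 2.63% of TATAAA reads and spanned 81 positions. The strongest CATAAA cluster, chr15:75900607-75900631 on the minus strand, held 237 and 316 CPM in U1 AMO cells, 198 and 366 CPM in scrambled AMO cells, and 304 and 156 CPM in untreated cells. None of the 3 strongest clusters of any variant passed the edgeR quasi-likelihood test of U1 AMO against scrambled AMO. One of them, the AGTAAA cluster at chr11:51436905-51436948 on the plus strand, passed when replicate number was taken as a block (log2 fold change -0.45 ± 0.139 SE, edgeR adjusted p = 0.0191). It held 942 and 1147 CPM in U1 AMO cells, 1261 and 1558 CPM in scrambled AMO cells, and 641 and 1086 CPM in untreated cells. The AMO groups did not overlap there, and untreated cells overlapped the U1 AMO group.

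The remaining 10 of these strongest clusters lay lower, with means of 859 to 1106 CPM for AGTAAA, 404 to 489 CPM for TATAAA, 223 to 230 CPM for CATAAA, 228 to 305 CPM for GATAAA and 169.6 to 221 CPM for ACTAAA over the 6 libraries. An ACTAAA cluster at chr17:37091287-37091315 on the minus strand stood at 226 and 291 CPM in U1 AMO cells, at 249.6 and 271 CPM in scrambled AMO cells, and at 142 and 148 CPM in untreated cells. Both AMO groups lay above untreated cells there and overlapped each other. A TATAAA cluster at chr11:102699780-102699803 on the minus strand ran the other way, at 352 and 336 CPM in U1 AMO cells, 327 and 351 CPM in scrambled AMO cells, and 543 and 514 CPM in untreated cells. Neither AMO group overlapped untreated cells at that site, and the run of each untreated library cannot be told apart from its group.

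Cleavage lay at nearly the same distance behind a variant as behind AATAAA. The read-weighted median distance was 21 nt in each of the 6 libraries for AGTAAA and ACTAAA, 22 nt for TATAAA and CATAAA, and 22 or 23 nt for GATAAA, against 21 nt for AATAAA. Between 15 and 25 nt lay 79.2% of AGTAAA reads, 73.2% of TATAAA, 76.9% of CATAAA, 83.8% of GATAAA and 78.5% of ACTAAA reads, against 79.8% of AATAAA reads. TATAAA reads were the least concentrated in that window. The mean distance averaged 22.6 nt for CATAAA and 22.1 nt for AATAAA over the 6 libraries, a difference of 0.52 ± 0.128 nt (SD, n = 6) with CATAAA longer in 6 of 6 libraries (exact sign-flip permutation test, two-sided, p = 0.03125, adjusted over the 5 variants p = 0.104). TATAAA was longer by 0.23 ± 0.145 nt and AGTAAA by 0.18 ± 0.131 nt, each in 5 of 6 libraries (exact p = 0.0625 and adjusted p = 0.104 for both). GATAAA differed by 0.04 ± 0.167 nt and ACTAAA by -0.15 ± 0.240 nt, and neither difference passed the test (exact adjusted p = 0.688 and 0.195). The smallest p that 6 libraries allow in this test is 0.03125, and libraries share their genomic positions. Counting the strongest position of each cluster once, without weighting by reads, gave longer distances for all 5 variants, by 0.44 to 1.15 nt (exact adjusted p = 0.0313). Counting every distinct position once gave differences of -0.41 nt for TATAAA, -0.18 nt for CATAAA, -0.097 nt for ACTAAA, 0.32 nt for AGTAAA and 0.044 nt for GATAAA, and none passed the test (exact adjusted p between 0.0781 and 0.594). In that count TATAAA was shorter and AGTAAA longer in 6 of 6 libraries. Before adjustment over the 5 variants, both were at the smallest p that the test allows. The sign of the difference thus depended on the weighting for 3 of the 5 variants, while AGTAAA and GATAAA were longer under each of these 3 weightings.

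**Figure D2:**
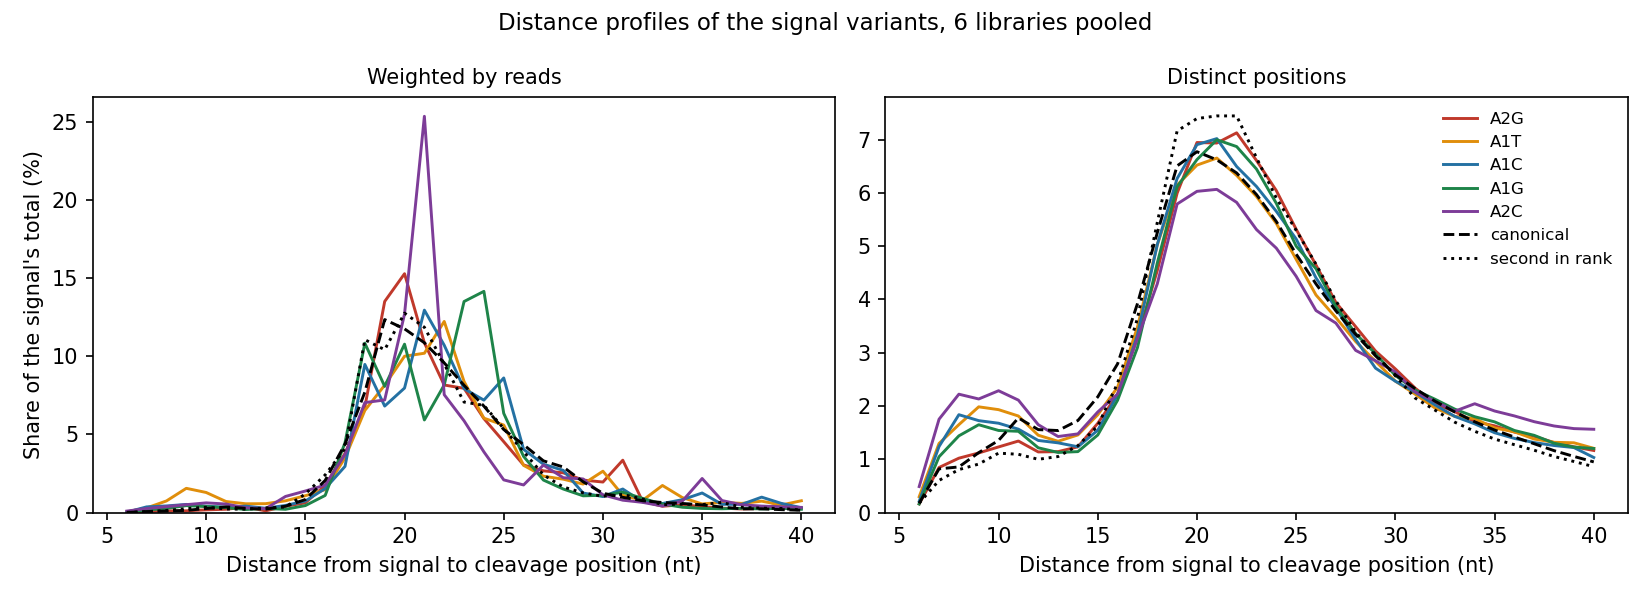
Distance from the signal to the cleavage position (x axis, nt) and the share of each signal's total at that distance (y axis, percent), weighted by reads on the left and counting each distinct position once on the right, for the 5 variants, the canonical signal and the second in rank, with the 6 libraries pooled. The position curves peak at 20 to 22 nt for all signals, while the read curves of A2C and A1G have high points of 25.3% at 21 nt and 14.2% at 24 nt.

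Read-weighted profiles were shaped by single sites. The ACTAAA profile had 25.3% of its reads at 21 nt, the distance of the strongest position in the cluster that held 22.1% of ACTAAA reads. GATAAA had its highest share, 14.2%, at 24 nt, where the strongest position of its leading cluster lay. Counted as distinct positions, all 5 variants had their most frequent distance at 21 or 22 nt, against 20 nt for AATAAA. A second, lower rise of distinct positions stood at short distances: 2.29% of ACTAAA and 1.93% of TATAAA positions lay at 10 nt, against 1.35% of AATAAA positions. CATAAA (1.68%) and GATAAA (1.54%) were also above AATAAA there, and AGTAAA (1.23%) was below it. AATAAA had a rise of its own at 11 nt, with 1.78%, where the variants ran from 1.34% for AGTAAA to 2.11% for ACTAAA. At 8 nt the shares were 2.22% for ACTAAA and 1.65% for TATAAA, against 0.857% for AATAAA.

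Weak clusters led by a variant often had a stronger common site downstream on the same strand. Among clusters of 1 to 10 CPM, a cluster led by AATAAA or ATTAAA with a higher mean level lay within 5 kb downstream of 41.0% of the 732 clusters led by AGTAAA and of 45.5% of the 778 led by TATAAA. The shares were 42.5% of 409 for CATAAA, 44.6% of 325 for GATAAA and 43.4% of 175 for ACTAAA. For clusters led by AATAAA the share was 19.7% of 9988, and for ATTAAA 31.4% of 3403. The count needs a neighbour stronger than the cluster itself, and levels inside the band were not matched. Over all clusters of at least 1 CPM the median level was 2.51 to 3.66 CPM for the variants and 6.32 CPM for AATAAA. Upstream, the variants stood between 19.4% and 29.1%, against 20.6% for AATAAA and 25.2% for ATTAAA. Within 1 kb the shares were 21.2% to 28.0% downstream and 12.6% to 18.6% upstream for the variants. They were 10.6% downstream and 10.7% upstream for AATAAA, and 18.2% downstream and 14.6% upstream for ATTAAA. Where such a downstream site existed within 20 kb, the median distance to it ran from 909 nt for ACTAAA to 1555 nt for GATAAA. It was 2179 nt for AATAAA and 1395 nt for ATTAAA, the latter inside the range of the variants. From 10 to 100 CPM, 17.9% to 31.8% of variant clusters had a stronger common site within 5 kb downstream, against 8.90% of those led by AATAAA and 14.5% of those led by ATTAAA. Upstream, 10.7% to 17.0% of variant clusters had one, against 9.08% for AATAAA and 12.9% for ATTAAA. Within 1 kb in that band CATAAA stood at 14.9% downstream and 13.8% upstream, against 5.38% and 4.83% for AATAAA, so its excess over AATAAA was similar on both sides. ATTAAA stood at 9.29% and 8.42% there. These are counts of clusters with no test over libraries, and no gene annotation of build mm9 was used, so a shared gene was not checked.

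**Figure D3:**
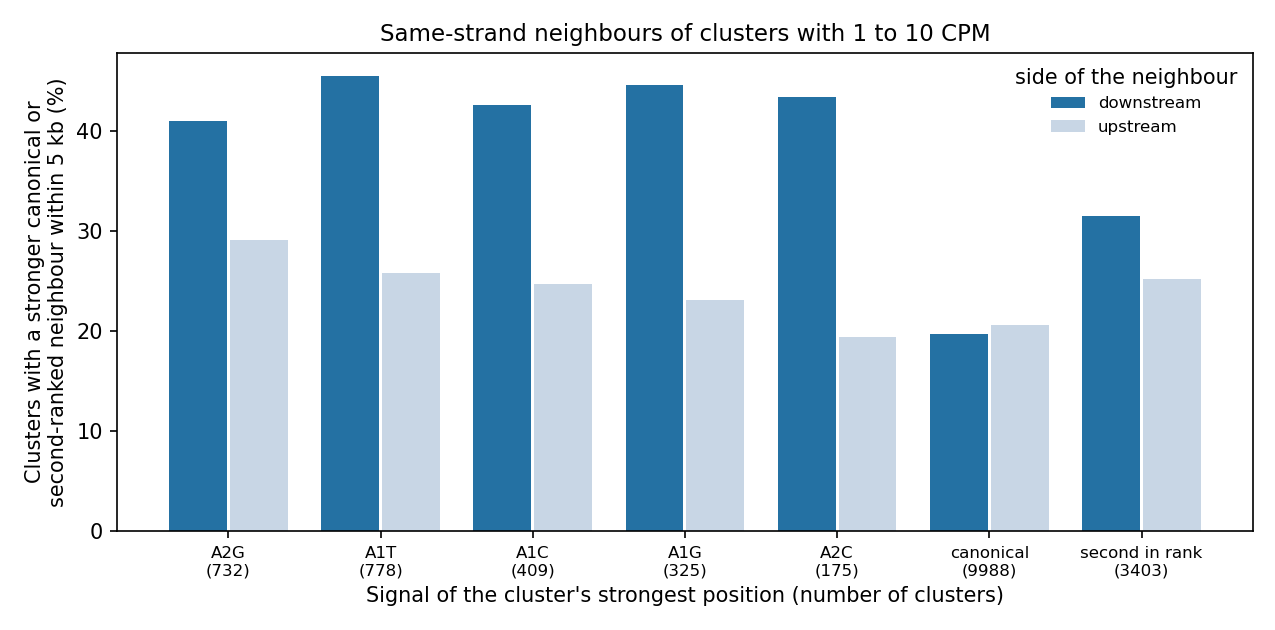
Percent of clusters of 1 to 10 CPM (y axis) that have, within 5 kb on the same strand, a cluster of higher mean level led by the canonical or second-ranked signal, downstream (dark bars) and upstream (light bars), by the signal of the cluster itself (x axis, number of clusters in brackets). Downstream the 5 variants stand at 41.0% to 45.5%, against 19.7% for the canonical signal and 31.4% for the second in rank. Levels inside the band are not matched.

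The question of the treatment comparison was whether use of these variant signals changed when U1 was blocked. The shares of reads overlapped between groups for 4 of the 5 variants. AGTAAA held 2.66% and 3.38% of reads in U1 AMO cells, 2.76% and 3.53% in scrambled AMO cells, and 3.05% and 2.73% in untreated cells (replicates 1 and 2). For both AMOs replicate 2 was higher, and the groups overlapped. GATAAA held 0.581% and 0.759% in U1 AMO cells, 0.657% and 0.818% in scrambled AMO cells, and 0.749% and 0.730% in untreated cells. CATAAA held 0.698% and 0.776% in U1 AMO cells, 0.673% and 0.779% in scrambled AMO cells, and 0.801% and 0.695% in untreated cells. ACTAAA held 0.401% and 0.445% in U1 AMO cells, 0.381% and 0.443% in scrambled AMO cells, and 0.419% and 0.310% in untreated cells. For these variants the groups overlapped in both comparisons, and replicates of an AMO differed by more than the means of the U1 AMO and scrambled AMO groups did. Within runs, U1 AMO minus scrambled AMO was -0.100 and -0.152 percentage points for AGTAAA (replicates 1 and 2) and -0.0762 and -0.0597 for GATAAA, lower in both runs. It was 0.0202 and 0.00227 for ACTAAA, higher in both, and 0.0256 and -0.0036 for CATAAA, with opposite signs.

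The groups were separate for TATAAA alone among the 5 variants, with shares of 1.81% and 1.82% in U1 AMO cells, 1.93% and 1.87% in scrambled AMO cells, and 2.07% and 2.39% in untreated cells. TATAAA was lowest in U1 AMO cells and highest in untreated cells, and within runs it was lower in U1 AMO than in scrambled AMO cells, as AGTAAA and GATAAA were. The mean was 1.81 ± 0.00731% in U1 AMO cells and 1.90 ± 0.0472% in scrambled AMO cells (SD, n = 2 each), a difference of -0.0880 percentage points, which was -0.127 within replicate 1 and -0.0495 within replicate 2. Scrambled AMO minus untreated was -0.328 percentage points, against a mean of 2.23 ± 0.227% in untreated cells (SD, n = 2). The exact permutation test of 2 libraries against 2 cannot go below p = 0.333, and both TATAAA differences stood at that value (adjusted p = 0.833 over 10 tests). The tests of the other variants gave exact p = 0.667 or 1.

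**Figure D4:**
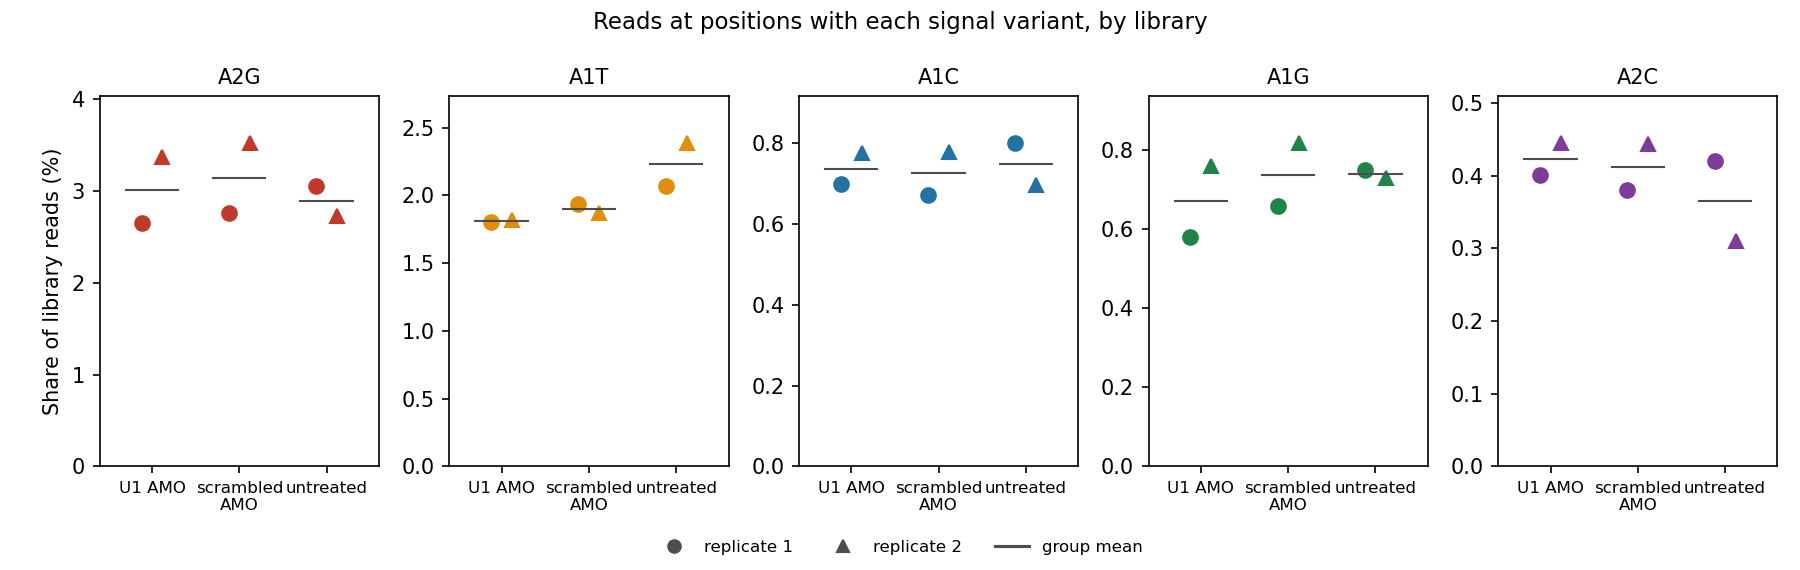
Share of library reads outside chromosome M at positions with each of the 5 signal variants (y axis, percent, a scale for each variant starting at 0), by group (x axis) and replicate (symbols), with a line at the group mean. A1T stands at 1.81% and 1.82% in U1 AMO cells, 1.93% and 1.87% in scrambled AMO cells and 2.07% and 2.39% in untreated cells, with no overlap of the groups, while the groups of the other 4 variants overlap.

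The number of distinct positions depends on depth, so libraries were thinned to the 15413148 reads outside chromosome M of the smallest one. AGTAAA then had 24600 and 24975 positions in U1 AMO cells, 22191 and 20854 in scrambled AMO cells, and 18993 and 11738 in untreated cells. More positions were seen in both U1 AMO libraries than in either scrambled AMO library. U1 AMO over scrambled AMO came to a ratio of 1.15 for AGTAAA, 1.10 for TATAAA, 1.16 for CATAAA, 1.09 for GATAAA and 1.14 for ACTAAA (exact permutation p = 0.333 for each, the smallest possible). The same ratio over all positions was 1.14, and the variants lay on both sides of it. Within replicate 1 the variant ratios ran from 1.04 to 1.13 and within replicate 2 from 1.14 to 1.20. Without thinning the ratios were 0.929 to 0.989.

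Clusters led by a variant rose in U1 AMO cells against scrambled AMO cells about as often as other clusters. Of 139315 such clusters outside chromosome M, 10245 passed the filter on low counts, and 70 of them rose (edgeR quasi-likelihood test, adjusted p under 0.05 over 80049 clusters), that is 0.683%, where 0.666% of all clusters tested rose. By signal, 25 of 3047 AGTAAA clusters rose, 17 of 3275 TATAAA, 16 of 1772 CATAAA, 9 of 1339 GATAAA and 3 of 812 ACTAAA clusters. No variant cluster fell in edgeR at that threshold, where 0 of all clusters fell, and at an unadjusted p under 0.05 there were 985 higher (9.61%) and 11 lower (0.107%), where 8.78% and 0.0937% of all clusters were. With DESeq2, 414 passed as higher (4.04%, where 3.91% of all clusters did) and 0 as lower (0 of all clusters). The count of 70 depended on single libraries, and so did that of all clusters. Without U1 AMO replicate 1 edgeR called 174 variant clusters (1.19%, against 1.06% of all clusters), and without U1 AMO replicate 2 it called 8 (0.0727%, against 0.0762%). Without scrambled AMO replicate 1 it called 15 (0.101%, against 0.102%), and without scrambled AMO replicate 2 it called 0, as over all clusters. Without untreated replicate 1 the count was 404 (2.75%, against 2.48%), and without untreated replicate 2 it was 435 (3.95%, against 3.43%).

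Raised variant clusters were nearly silent without the AMO against U1. Their median level was 7.17 and 5.39 CPM in U1 AMO cells, 0.0372 and 0.0321 CPM in scrambled AMO cells, and 0 in both untreated libraries. Of the 70, 12 had no read in either scrambled AMO library and 44 none in either untreated library. They carried 0.0726% of the reads of U1 AMO replicate 1, and the strongest positions lay at a median of 22 nt behind the signal. A stronger site led by AATAAA or ATTAAA lay within 20 kb downstream of 51.5% of the 68 raised clusters of at least 1 CPM, and of 45.2% of the 3192 others tested. Its median distance was 7334 nt for the raised clusters and 1161 nt for the others. The raised clusters and the others were not matched for level. By variant, the share within 20 kb was 50.5% to 57.2% among all clusters of 1 to 10 CPM. From 10 to 100 CPM it was 20.6% to 39.4%. The filter kept such clusters through their U1 AMO reads, so these levels describe the called clusters and no more. The 282 raised clusters led by AATAAA were also nearly silent elsewhere. Their medians were 10.1 and 7.77 CPM in U1 AMO cells, 0.112 and 0.0803 CPM in scrambled AMO cells, and 0.0259 and 0 CPM in untreated cells. Of these, 28 had no read in either scrambled AMO library and 106 none in either untreated library.

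Among AGTAAA clusters the largest rises were at chr14:57295809-57295825 and chr12:3236295-3236318, both on the plus strand. The chromosome 14 site had 7.81 and 11.5 CPM in U1 AMO cells, 0 reads in both scrambled AMO libraries and 1 read in the untreated libraries, and was at least 319-fold higher in U1 AMO cells, taking a floor of 3 counts over the scrambled AMO group (edgeR adjusted p = 0.0313). The chromosome 12 site had 9.84 and 5.73 CPM in U1 AMO cells and no read in the other 4 libraries, and was at least 196-fold higher (edgeR adjusted p = 0.0345). Both sites were thus seen in U1 AMO cells in both replicates and hardly at all elsewhere. TATAAA gave chr4:102885882-102885892 on the minus strand, with 7.43 and 7.68 CPM in U1 AMO cells and no read in the other libraries, at least 227-fold higher (edgeR adjusted p = 0.0315). It also gave chr13:69752065-69752074 on the plus strand, with 4.51 and 4.28 CPM in U1 AMO cells and no read elsewhere, at least 129-fold higher (edgeR adjusted p = 0.0403).

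The named CATAAA and GATAAA rises were of the same kind. The cluster at chr7:13507990-13508011 on the plus strand (CATAAA) had 3.62 and 2.45 CPM in U1 AMO cells and no read elsewhere, at least 80.2-fold higher. At chr6:54989178-54989189 on the plus strand (CATAAA) there were 4.38 and 3.97 CPM in U1 AMO cells and 1 read in scrambled AMO cells, a ratio of 362 with a 95% exact counting interval of 64.4 to 14329.8. Their edgeR adjusted p was 0.0497 for both, just under the threshold. For GATAAA, chr10:116497388-116497413 on the minus strand had 3.11 and 4.70 CPM in U1 AMO cells and no read elsewhere, at least 129-fold higher, and chr1:87715143-87715175 on the plus strand had 6.73 and 5.96 CPM in U1 AMO cells and 1 scrambled AMO read, a ratio of 545 (97.4 to 21590.6). ACTAAA gave chr12:86561588-86561607 on the plus strand, with 7.62 and 5.02 CPM in U1 AMO cells and 1 scrambled AMO read, a ratio of 497 (88.7 to 19679.9). The last, chr4:83064756-83064785 on the plus strand, had 14.7 and 10.03 CPM in U1 AMO cells and 3 scrambled AMO reads, a ratio of 328 (112 to 1593). Its strongest position lay only 8 nt behind the signal. None of these 4 GATAAA and ACTAAA sites had a read in untreated cells, and their edgeR adjusted p ran from 0.0235 to 0.0488.

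The shared runs of the AMO libraries allowed the comparison to be made within runs. Deviations from the group mean correlated at 0.737 between U1 AMO and scrambled AMO libraries of the same number, over 59679 clusters, which share libraries and depth and are not replicates. When a fit of the 4 AMO libraries took the replicate number as its block, 1176 of 8647 variant clusters rose and 176 fell (edgeR, adjusted p under 0.05), where 13.4% of all clusters tested rose and 2.28% fell. That is 13.6% and 2.04% of the variant clusters, close to the background in both directions. CATAAA and ACTAAA clusters had fewer falls for their number than AGTAAA: 219 rose and 16 fell for CATAAA, 92 and 5 for ACTAAA, 412 and 74 for AGTAAA, 308 and 46 for TATAAA, and 145 and 35 for GATAAA, and these counts were not tested against each other. This fit has a single residual degree of freedom and leans on the spread shared across clusters.

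Clusters that fell within runs were well used in all groups. Their median level was 6.06 and 8.53 CPM in U1 AMO cells, 11.5 and 11.9 CPM in scrambled AMO cells, and 9.37 and 11.9 CPM in untreated cells. In 117 of the 176 both U1 AMO libraries lay below both scrambled AMO libraries. The same was seen in 631 of the 911 clusters led by AATAAA that fell in this fit, so it was not particular to the variants. The named falls among clusters of at least 10 CPM rested mostly on replicate 1. The AGTAAA cluster at chr8:109554782-109554803 on the minus strand had 0.825 and 14.0 CPM in U1 AMO cells, 10.1 and 18.9 CPM in scrambled AMO cells, and 10.6 and 16.7 CPM in untreated cells. The CATAAA cluster at chr6:5275917-5275919 on the plus strand had 0.0635 and 22.5 CPM in U1 AMO cells, 4.88 and 32.8 CPM in scrambled AMO cells, and 22.5 and 26.9 CPM in untreated cells, and its U1 AMO value in replicate 1 was 1 read. At chr15:92264395-92264401 on the minus strand (TATAAA) the values were 0.0635 and 19.8 CPM in U1 AMO cells, 1.64 and 25.8 CPM in scrambled AMO cells, and 14.4 and 8.09 CPM in untreated cells. In these 3 clusters the U1 AMO was lower within each run, the gap was wider on the log scale in replicate 1, and the groups overlapped. The GATAAA cluster at chr10:62222838-62222845 on the minus strand had 7.75 and 11.5 CPM in U1 AMO cells, 22.8 and 12.4 CPM in scrambled AMO cells, and 4.62 and 2.38 CPM in untreated cells. The AMO groups did not overlap there, and both untreated libraries lay below both U1 AMO libraries. At chr8:86620966-86620976 on the minus strand (ACTAAA) there were 41.8 and 97.5 CPM in U1 AMO cells, 74.5 and 137 CPM in scrambled AMO cells, and 141 and 170 CPM in untreated cells. Its log2 fold change was -0.68 ± 0.15 (SE) in the fit with the block (edgeR adjusted p = 0.00089), and it did not pass without the block (log2 fold change -0.60, edgeR adjusted p = 1). The other named falls did not pass without the block either.

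Against untreated cells more variant clusters changed, again near the background. In U1 AMO cells 449 of the 10245 rose and 44 fell (edgeR, adjusted p under 0.05), which is 4.38% and 0.429%, where 4.39% and 0.505% of all clusters did. The total of 493 calls was 131 without U1 AMO replicate 2 (1.19%, against 1.17% of all clusters), 246 without untreated replicate 2 (2.23%, against 2.15%) and 1098 without untreated replicate 1 (7.47%, against 7.88%). With DESeq2, 936 passed as higher (9.14%) and 233 as lower (2.27%), where 10.1% and 2.64% of all clusters did. AGTAAA had 168 rises and 13 falls, CATAAA 93 and 1, GATAAA 61 and 5, and ACTAAA 36 and 3. TATAAA had 91 rises, 2.78% of its 3275 clusters, and 22 falls, and AGTAAA rose at 5.51% of its 3047 clusters. That difference between the variants was not tested. Between scrambled AMO and untreated, edgeR called 0 variant clusters in either direction, where 0 of all clusters were called. At an unadjusted p under 0.05 there were 821 higher (8.01%) and 395 lower (3.86%), where 8.52% and 4.59% of all clusters were. With DESeq2, 150 passed as higher (1.46%) and 88 as lower (0.859%), where 1.71% and 1.11% of all clusters did. The 2 comparisons with untreated cells share those libraries, so their values are given side by side only.

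TATAAA clusters stood lower, relative to all clusters, in both AMO groups than in untreated cells. For U1 AMO against untreated the median log2 fold change was -0.11 over the 3275 TATAAA clusters tested and 0.23 over all clusters, while the other 4 variants had medians of 0.25 to 0.45. The gap to all clusters held in each level band, at -0.43 from 0.1 to 1 CPM, -0.33 from 1 to 10 CPM, -0.31 from 10 to 100 CPM and -0.28 over 40 clusters at 100 CPM or more. In that top band CATAAA was lower still, at -0.44 over 14 clusters, and GATAAA stood at -0.15 over 13. AGTAAA (0.15) and ACTAAA (0.25) stood above all clusters there. For the scrambled AMO against untreated, the gap in that band was -0.39 for CATAAA and -0.17 for TATAAA. For scrambled AMO against untreated the medians were -0.05 for TATAAA and 0.15 for all clusters, while the other 4 variants had medians of 0.24 to 0.39. For U1 AMO against scrambled AMO the median was -0.02 over all clusters, and TATAAA at -0.12 was close to GATAAA at -0.11, with AGTAAA at -0.07, ACTAAA at -0.03 and CATAAA at -0.02. In the fit of the 4 AMO libraries with the block, GATAAA was lowest, at -0.13 against 0.01 for all clusters, with TATAAA at -0.11. With each library left out in turn the gap against untreated stayed below 0, between -0.52 and -0.28 for the U1 AMO and between -0.34 and -0.06 for the scrambled AMO.

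Library by library, the level of TATAAA clusters of at least 1 CPM was set against the median of all clusters in that library, each cluster being centred on its own mean over the 6 libraries on the log2(CPM + 0.5) scale. TATAAA stood at -0.13 and -0.08 in U1 AMO cells, at -0.03 and -0.04 in scrambled AMO cells, and at 0.05 and 0.23 in untreated cells. Untreated replicate 2 was farthest from the rest and the groups did not overlap. In that library AGTAAA stood at -0.20, CATAAA at -0.25, GATAAA at -0.15 and ACTAAA at -0.25, so TATAAA and the other 4 variants deviated in opposite directions there. Untreated replicate 2 also held the fewest distinct positions, 500472, at 60473882 reads. What part its run played was not tested. The AATAAA clusters stood between -0.03 and 0.03 in every library.

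**Figure D5:**
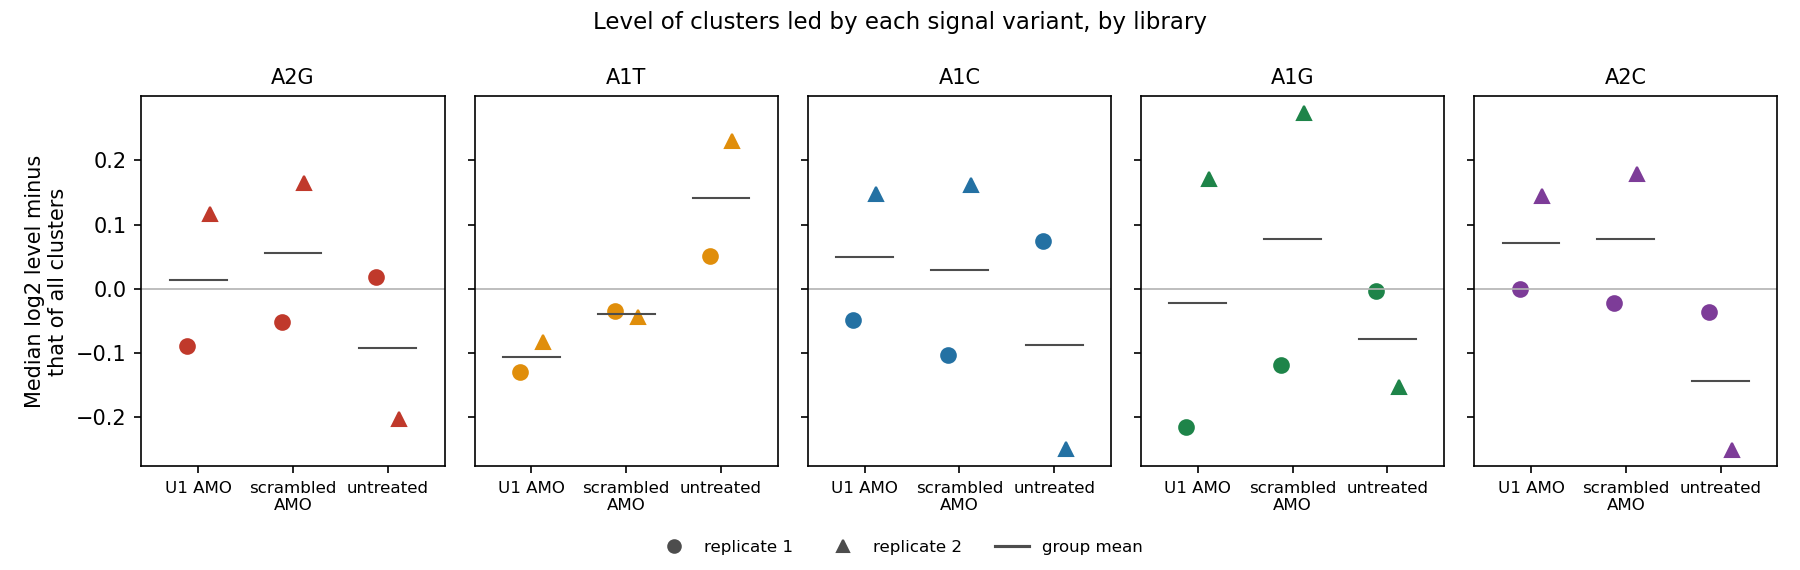
Median level of clusters led by each of the 5 signal variants relative to all clusters (y axis, log2 scale, clusters of at least 1 CPM centred on their mean over the 6 libraries), by group (x axis) and replicate (symbols), with a line at the group mean. A1T stands at -0.13 and -0.08 in U1 AMO cells and at 0.05 and 0.23 in untreated cells, and the other 4 variants have their lowest or second-lowest value in untreated replicate 2.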

How the data were processed

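The authors deposited, for each library, a list of stranded cleavage positions with raw read counts, a hexamer, the distance to it and a score from 0 to 10 of unstated meaning. Libraries were made from RNase T1 fragments of poly(A) RNA by circularising the cDNA and PCR, per the labels' protocols. Reads were processed with cutadapt and Bowtie on build mm9, per the submitters' processing notes. No source used here states how positions were filtered, and every listed position had a hexamer.

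Counts were pooled over libraries, joined into clusters (same strand, at most 24 nt apart) and tested by quasi-likelihood in edgeR 4.0.16 (R 4.3.3, TMM, filterByExpr, 6 libraries in 3 groups, no block), with Benjamini-Hochberg adjusted p under 0.05 over all clusters. DESeq2 1.42.0 was an alternative. Shares, distances and numbers of positions were compared by exact two-sided permutation over libraries with Python 3.11.15 and scipy 1.17.1. CPM is relative to all reads of the library.

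The AMO libraries with the same replicate number share a sequencing run by their read names, and a fit with the replicate number as a block was made beside the main one. Named clusters were, per variant, the 3 of highest mean level, the 2 called with the highest log2 fold change among those of at least 1 CPM over the 4 AMO libraries, and the 1 called with the lowest in the block fit at 10 CPM or more. The members, lists and tests were chosen with earlier results of these data known. No gene names or flanking sequences are given, because no annotation or genome of build mm9 was used here.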

Additional observations from a re-analysis of the deposited data

Results flagged for a closer look

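The same hexamers were also listed on chromosome M, which was left out above and whose transcripts are polyadenylated in mitochondria without use of this signal. Variant positions there took 3466 and 1679 CPM in U1 AMO cells, 2910 and 1096 CPM in scrambled AMO cells, and 1259 and 1083 CPM in untreated cells. Both U1 AMO libraries lay above both untreated libraries, which is why the values are given, and they overlapped the scrambled AMO libraries. All reads on chromosome M had the same order, so it was not particular to the variants. They made up 2.15% and 1.22% of reads in U1 AMO cells and 1.60% and 0.853% in scrambled AMO cells. In untreated cells they made up 0.617% and 0.352%. In both AMO groups replicate 1 was higher than replicate 2. The part played by the runs was not tested.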

How the results depend on the processing

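The count of variant clusters called for U1 AMO against scrambled AMO moved most: 1352 with the replicate block in the 4 AMO libraries, 381 in these libraries without the block, 0 with the replicate block in 6 libraries, 0 with single positions as features, 418 without a filter on low counts, 414 with DESeq2, and 0 to 435 with a library left out. For U1 AMO against untreated it was 0 with the replicate block, 183 with single positions, 889 without the filter, 1169 with DESeq2, and 131 to 1098 with a library left out. For scrambled AMO against untreated it was 132 without the filter, 238 with DESeq2, and 0 to 4 with a library left out. In the block over 6 libraries, the replicate number marks no run shared with an untreated library. Deviations of libraries with the same number correlated at -0.337 between U1 AMO and untreated and at -0.381 between scrambled AMO and untreated. The cause of the changes in count was not tested.

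The named rises kept their direction in all 120 alternative fits and missed the threshold in 35. The named falls came from the block fit of the 4 AMO libraries. Apart from fits with a library left out, every alternative kept their direction and missed the threshold, the main fit and DESeq2 included. With a library left out and no block, their log2 fold changes ran from -4.24 to 0.0201 at chr8:109554782, -7.85 to 2.76 at chr15:92264395, -8.29 to 1.38 at chr6:5275917, -1.23 to -0.45 at chr10:62222838 and -1.44 to 0.0175 at chr8:86620966.

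Share differences of TATAAA kept their sign throughout: -0.121 to -0.0546 (U1 AMO minus scrambled AMO) and -0.488 to -0.168 percentage points (scrambled AMO minus untreated) with a library left out. The others changed sign: -0.512 to 0.26 for AGTAAA, -0.0422 to 0.0642 for CATAAA, -0.157 to 0.0209 for GATAAA and -0.0199 to 0.0424 for ACTAAA in the first comparison, and -0.138 to 0.633, -0.0754 to 0.0309, -0.0825 to 0.0787 and -0.00766 to 0.102 in the second. Without the 10 strongest clusters, chosen after seeing the data, scrambled AMO minus untreated was 0.0044 for CATAAA and 0.0218 for GATAAA. Pairing by replicate number changed no call on shares, where 2 pairs allow no p under 0.5.

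Distance differences from AATAAA were 1.15 (AGTAAA), 0.44 (TATAAA), 0.57 (CATAAA), 1.04 (GATAAA) and 1.05 nt (ACTAAA) with the strongest position of each cluster. They were -0.41 (TATAAA) and -0.18 nt (CATAAA) over distinct positions, -0.069 nt for AGTAAA at a score of at most 5, and 0.34 nt for ACTAAA without the 10 strongest clusters. With a library left out, an alternative chosen after seeing the data, GATAAA ran from -0.0239 to 0.0762 nt.

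Score differences over distinct positions were -0.212 (AGTAAA), 0.0151 (TATAAA), 0.0074 (CATAAA), 0.0538 (GATAAA) and 0.025 (ACTAAA). In the same order, with the strongest position of each cluster, they were -0.295, -0.0931, -0.078 and -0.057 for the first 4. Without the 10 strongest clusters they were 0.00017 (AGTAAA), 0.502 (GATAAA) and 0.178 (ACTAAA). With a library left out they ran from 0.13 to 0.167, 0.192 to 0.235, 0.269 to 0.293, -0.449 to -0.325 and -0.0432 to 0.0349, and 5 libraries allow no p under 0.0625.

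Ratios of distinct positions without thinning were 0.989 (AGTAAA), 0.941 (TATAAA), 0.981 (CATAAA), 0.929 (GATAAA) and 0.964 (ACTAAA). The main limits were 2 libraries a group, unequal depths, and low counts: 46.0% of variant positions had 1 read over all libraries, so small changes at weak sites were not detectable at this depth.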

Other observations

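The deposited score from 0 to 10 differed between signals when weighted by reads. Its mean was 4.18 for AGTAAA, 4.24 for TATAAA, 4.31 for CATAAA, 3.63 for GATAAA and 4.02 for ACTAAA, against 4.03 for AATAAA, over the 6 libraries. The score was higher than for AATAAA in 6 of 6 libraries by 0.149 for AGTAAA, by 0.207 for TATAAA and by 0.279 for CATAAA, and GATAAA was lower in 6 of 6, with a difference of -0.402 (exact sign-flip permutation test, two-sided, p = 0.03125, adjusted p = 0.0391 for each). ACTAAA differed by -0.0147 (exact adjusted p = 0.875). These differences depended on the weighting by reads. Over distinct positions they were -0.212 for AGTAAA, 0.0151 for TATAAA, 0.0074 for CATAAA and 0.0538 for GATAAA, and with the strongest position of each cluster -0.295, -0.0931, -0.078 and -0.057 in the same order, and none of these passed the test (exact adjusted p between 0.156 and 0.844). Without the 10 strongest clusters of each signal, an alternative chosen after seeing the data, GATAAA was higher by 0.502 and AGTAAA by 0.00017.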
